A study of Mus musculus with 9 samples.

Results

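The genes described here drive the cell cycle, the sequence of growth (G1), DNA replication (S), preparation (G2) and division (mitosis) by which cells multiply. Rows of the deposited gene table were matched to 41 listed symbols, the row with the highest mean level was taken for each symbol, and rows of at least 1 FPKM in any group were kept. All 41 passed, of 33450 rows in all and 16935 rows of at least 1 FPKM. FPKM are fragment counts scaled to the length of the transcript and the size of the library, so levels of different genes can be compared. The list holds 6 genes of G1 and G1/S control, 13 of S phase and 22 of G2 and mitosis.

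The RNA came from the whole ovaries of 9 mice of the inbred strain C57BL/6J, aged 15 weeks and fed their diet for 10 weeks, and libraries of messenger RNA were made with a strand-specific kit. Controls (3 mice) ate standard chow with 16% fat, and 6 mice ate a diet with 60% fat. Of these, 3 remained lean (HFLN) and 3 became obese (HFOB), so these groups were formed by the response of the animal and not by assignment. For the stage of the oestrous cycle, the sources used here give nothing. The table holds 1 FPKM per group with a deposited lower and upper bound, printed in parentheses, and no value per animal. No SD or p-value can therefore be given, how many of the 3 mice carry a difference is unknown, and depth is unknown.

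In the adult ovary the granulosa cells of growing follicles are known as the main dividing population. Follicle-stimulating hormone raises D-type cyclins in them, which with CDK4 and CDK6 inactivate the RB proteins and release E2F factors that switch on replication genes. Later, CDK1 with cyclins A and B drives entry into mitosis, and the anaphase-promoting complex ends it by marking cyclins for destruction. Granulosa cells that become luteal cells at ovulation leave the cycle. Oocytes, arrested in meiosis, store RNA of several mitotic genes, and endothelial cells, theca cells and leukocytes can divide as well.

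In whole-ovary RNA the cells that carry a transcript are not seen, and fewer dividing cells cannot be told apart from less RNA per cell. The name of the group, cell-cycle genes of proliferating follicle cells, is in that respect not checked by the table. All 12 granulosa markers had at least 1 FPKM and together stood at 2949.6, 2454 and 2595 FPKM in control, HFLN and HFOB. Most of this sum was Inha, at 1712, 1360 and 1465 FPKM, with a control interval of 529 to 2895. This sum holds joint rows, of Hsd17b1 with Mlx, Coasy and Naglu at 329, 264 and 303 FPKM and of Foxl2 with Faim at 136, 129 and 136 FPKM. All 12 oocyte markers were measured too, at 243, 245 and 259.9 FPKM. Of 8 leukocyte markers 5 reached 1 FPKM, with a sum of 171, 160.3 and 169 FPKM, of which 92.7, 91.0 and 92.4 FPKM are a row that joins Cd68 with Eif4a1, a translation factor gene of all cells.

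No cell-cycle gene passed the rule used for a call, which asks for a difference of at least 2-fold on the log2(FPKM + 1) scale and for deposited intervals that do not overlap. The count was 0 of 41 in each of the 3 comparisons. Over all rows tested, 0.283% passed in HFLN against control, 0.366% in HFOB against control and 0.195% in HFOB against HFLN, so 0 of 41 is not particular to these genes. Intervals that lay apart at any fold were 0 of 41 as well, against 0.283%, 0.372% and 0.207% of all rows. In all 41, each group's value lay inside the interval of both other groups. The upper bound lay 33.7% to 114% above the value, with a median of 42.3%. Differences of the size described next are thus smaller than the deposited intervals.

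**Figure D1:**
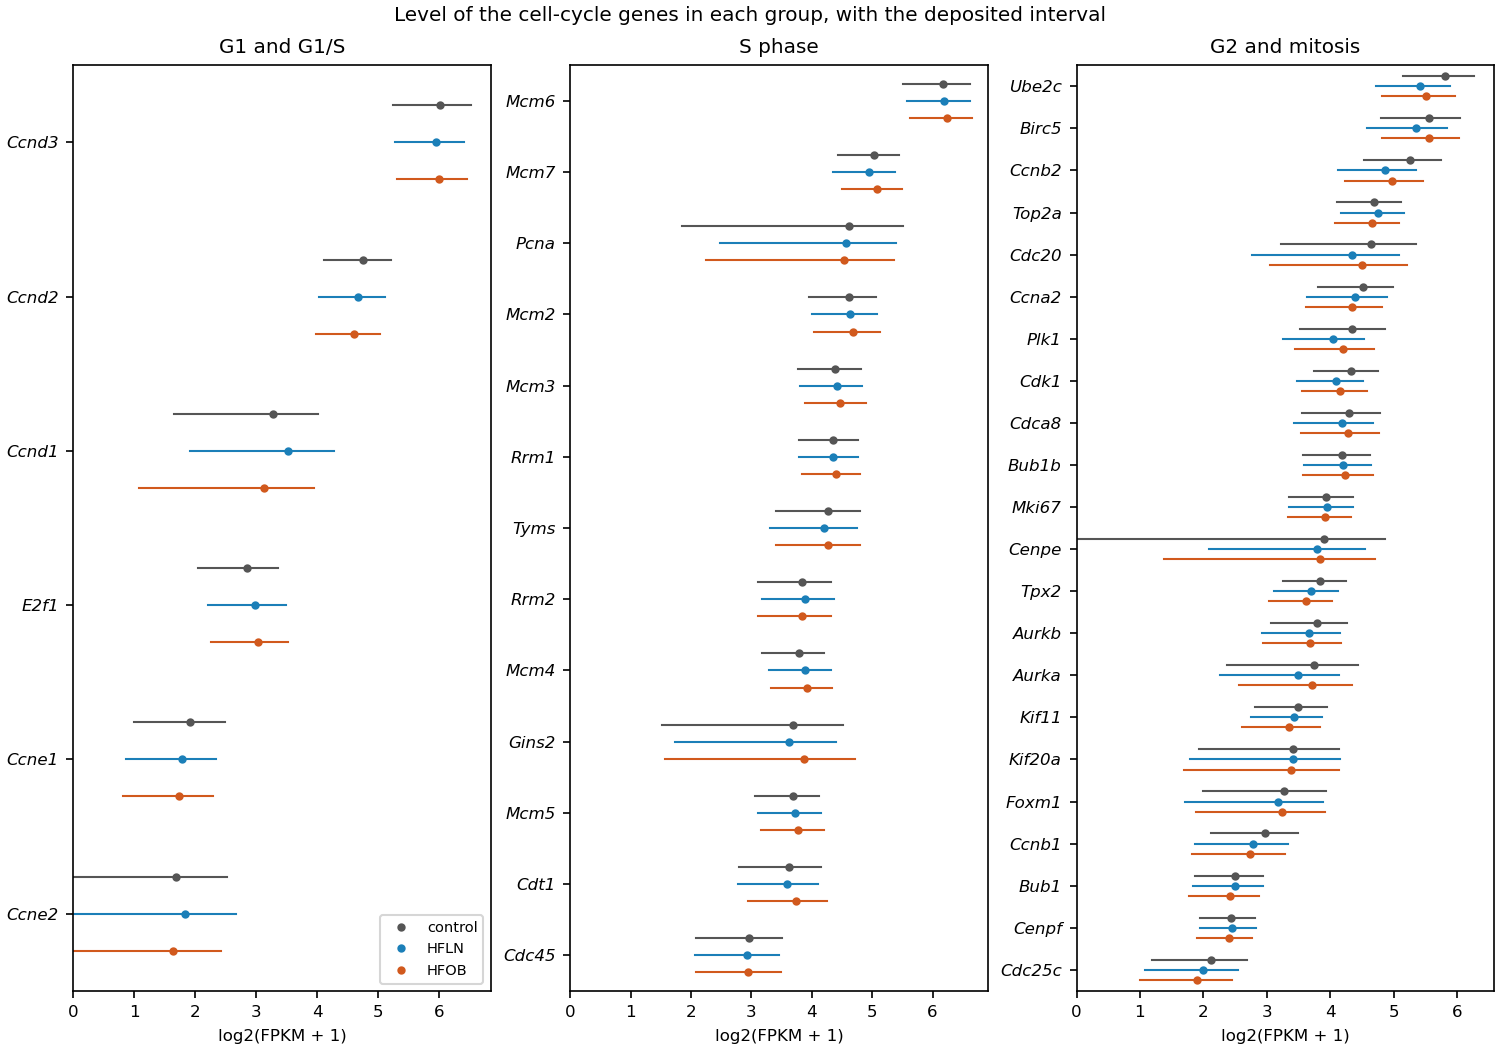
Level of each cell-cycle gene on a log2(FPKM + 1) axis in control (grey), HFLN (blue) and HFOB (orange), with genes of each class ordered by their control value. Points are the deposited group values and lines the deposited intervals, a line that starts at the axis having a lower bound of 0. The 3 intervals overlap for all 41 genes.

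Most genes of G2 and mitosis were lower in both diet groups than in control, by amounts within the intervals. S-phase genes lay near control in HFLN and, at the median, slightly above it in HFOB, also within the intervals. With 1 value per group, the difference between the classes was not tested. Relative to control, 18 of 22 genes of G2 and mitosis were lower by any amount in HFLN and 21 of 22 in HFOB, where 49.9% and 53.0% of all rows were. Their median difference on the log2(FPKM + 1) scale was -0.12 in HFLN and -0.09 in HFOB, beside 0.00 and -0.01 over all rows of at least 1 FPKM. Both comparisons use the same controls. All genes of a class were read from the same libraries, so the counts are not independent observations. Several genes counted as lower lay close to control. In HFOB Birc5, Cdca8, Mki67, Foxm1, Top2a and Aurka differed by -0.04 to 0.00. In HFLN Kif20a and Bub1 differed by -0.01 to 0.00. Upper-quartile scaling raised the median of protein-coding rows by 0.04 in both comparisons, and the counts were not taken again under it. With that scaling the class medians in HFLN were -0.08 for G2 and mitosis and 0.04 for S phase. In HFOB they were -0.05 and 0.11, so that S phase lay further from control than mitosis there. Between HFOB and HFLN, 10 of 22 genes of G2 and mitosis were lower and the median difference was 0.02, with 52.2% of all rows lower.

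Of the 13 S-phase genes, 6 were higher in HFLN than in control and 9 in HFOB, where 50.1% and 47.0% of all rows were, and the median differences were 0.00 and 0.06. In HFOB against HFLN 11 of 13 were higher, with a median of 0.05, where 47.7% of all rows were higher. The 6 genes of G1 and G1/S control had medians of 0.03 in HFLN and -0.10 in HFOB against control. Of the 6, 3 were lower in HFLN and 5 in HFOB, where 49.9% and 53.0% of all rows were. Without the uncertain rows named below the HFOB median was -0.0057. Summed over the class, G2 and mitosis stood at 399, 348 and 363 FPKM in control, HFLN and HFOB, S phase at 275, 275 and 286 FPKM, and G1 and G1/S at 109.9, 108 and 105 FPKM. The mitotic sum in HFLN was 87.2% of control and the S-phase sum 99.9%. In HFOB the same shares were 91.2% and 104%. Genes with high levels weigh most in such sums. Ube2c held 55.2, 41.8 and 44.5 FPKM of the mitotic sums in control, HFLN and HFOB. A joint row of Mcm6 with Dars held 71.0, 72.1 and 74.2 FPKM of the S-phase sums.

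**Figure D2:**
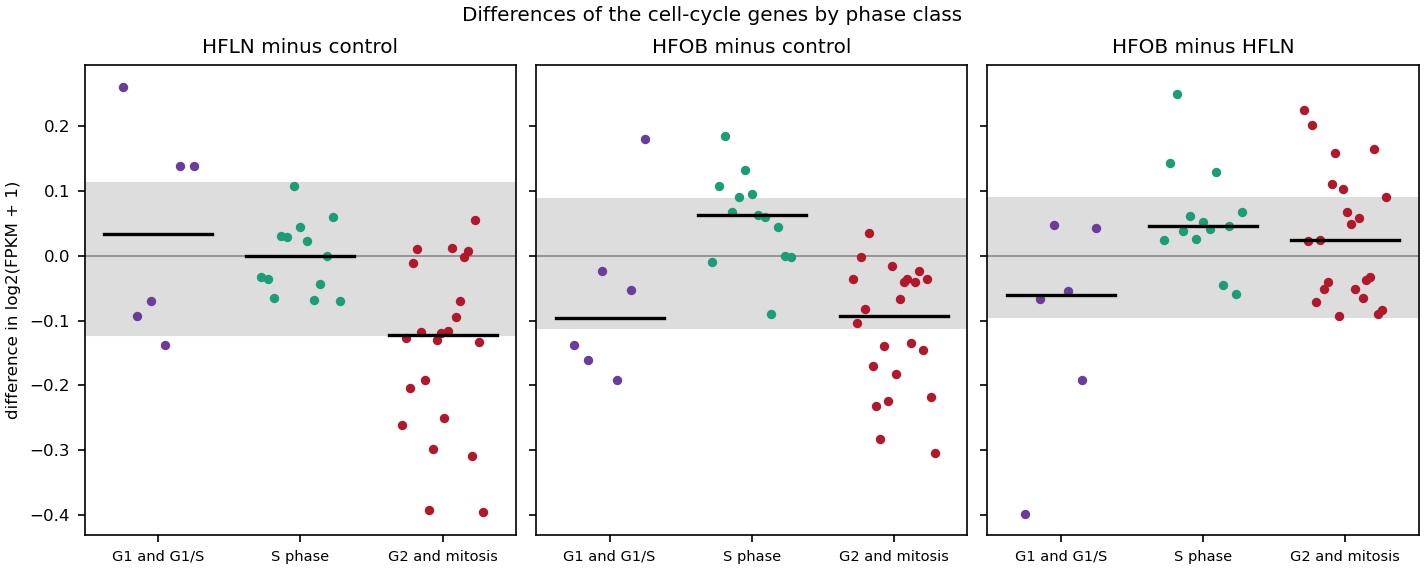
Difference in log2(FPKM + 1) of each cell-cycle gene in the 3 comparisons, by phase class; each point is a gene, the black bar the class median, and the grey band the interquartile range of all rows of at least 1 FPKM. Genes of G2 and mitosis reach -0.39 in HFLN minus control, and S-phase genes stay between -0.07 and 0.11.

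Of the 3 D-type cyclins, which open the cycle with CDK4 and CDK6, Ccnd3 had the highest level, at 63.9 FPKM in control mice (36.8 to 91.1), 60.8 in HFLN mice (37.8 to 83.9) and 62.9 in HFOB mice (38.5 to 87.2). Ccnd2, the cyclin that granulosa cells need to respond to follicle-stimulating hormone, stood at 26.1 FPKM in control mice (16.2 to 36.0), 24.4 in HFLN mice (15.4 to 33.5) and 23.3 in HFOB mice (14.8 to 31.8). Its values differed by -0.09 and -0.16 from control on the log2 scale, within the intervals. A further row of Ccnd2 held 14.6, 16.8 and 14.3 FPKM with lower bounds of 0, and both rows summed to 40.8, 41.2 and 37.6 FPKM. On the summed values the D2 cyclin of HFLN lay slightly above control, where the main row lay below. Ccnd1 stood at 8.65 FPKM in control mice (2.15 to 15.1), 10.6 in HFLN mice (2.77 to 18.3) and 7.77 in HFOB mice (1.10 to 14.4). It was the highest in HFLN, and its difference between HFOB and HFLN, -0.40, was the lowest of the 41 genes in that comparison.

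The E-type cyclins, which activate CDK2 at the start of replication, were the least abundant members. Ccne1 stood at 2.79 FPKM in control mice (0.987 to 4.59), 2.44 in HFLN mice (0.814 to 4.07) and 2.32 in HFOB mice (0.759 to 3.87), and Ccne2 at 2.23, 2.55 and 2.11 FPKM with lower bounds of 0 in all groups. E2f1, a transcription factor that switches on replication genes, was higher in both diet groups, at 6.20 FPKM in control mice (3.13 to 9.26), 6.92 in HFLN mice (3.64 to 10.2) and 7.16 in HFOB mice (3.77 to 10.5), differences of 0.14 and 0.18 with overlapping intervals. In 14 of the 41 genes the row merges a second RNA or reaches more than 5 kb past the gene, so its value may hold fragments of other transcripts. Among G1 genes these are Ccnd1, Ccnd2, Ccnd3 and Ccne2, in S phase Mcm6, Gins2 and Pcna, and in G2 and mitosis Ccna2, Foxm1, Aurka, Bub1, Bub1b, Kif20a and Cdc20.

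Among S-phase genes, the subunits of the MCM helicase, which unwinds DNA at the fork, were close to control. Mcm2 stood at 23.4 FPKM in control mice (14.5 to 32.3), 23.9 in HFLN mice (15.1 to 32.8) and 24.6 in HFOB mice (15.4 to 33.8). Mcm3 had 19.9, 20.3 and 21.2 FPKM, Mcm4 12.8, 13.8 and 14.1 FPKM, and Mcm5 11.8, 12.2 and 12.7 FPKM. In each of these 4, HFOB was the highest and control the lowest of the 3 values, by differences of at most 0.13 on the log2 scale. Mcm7 stood at 31.5, 30.0 and 32.9 FPKM, with HFLN the lowest. The row of Mcm6 also holds Dars, a gene for a transfer RNA ligase, so its 71.0, 72.1 and 74.2 FPKM are a joint value.

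The other replication factors spread around control. Cdc45, a helicase cofactor, stood at 6.77, 6.60 and 6.72 FPKM, and Cdt1, which loads the helicase, at 11.4, 11.0 and 12.3 FPKM. Gins2, a further helicase cofactor, stood at 11.8 FPKM in control mice (1.86 to 21.8), 11.3 in HFLN mice (2.33 to 20.2) and 13.6 in HFOB mice (1.98 to 25.2) in a row whose span reaches 352 kb past the gene. Pcna, the sliding clamp of DNA polymerases, stood at 23.5 FPKM in control mice (2.58 to 44.4), 22.8 in HFLN mice (4.56 to 41.0) and 22.0 in HFOB mice (3.73 to 40.3), likewise in a row that reaches past the gene. The enzymes that supply nucleotides were close to control as well. Rrm1 and Rrm2, the subunits of ribonucleotide reductase, stood at 19.5, 19.5 and 20.1 FPKM and at 13.3, 13.9 and 13.3 FPKM, and Tyms, thymidylate synthase, at 18.3, 17.3 and 18.2 FPKM.

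Genes of G2 and mitosis were described by role, first the switch into mitosis. Ccnb2, a B-type cyclin (GRCm38.p6, chromosome 9, 70407689 to 70421554), stood at 37.4 FPKM in control mice (22.3 to 52.4), 28.2 in HFLN mice (16.5 to 39.9) and 30.5 in HFOB mice (17.9 to 43.2). Control was the highest of the 3 values, HFLN was 75.6% of it and HFOB 81.8%. Cdk1, its kinase partner (chromosome 10, 69335146 to 69352912), stood at 19.2 FPKM in control mice (12.3 to 26.0), 16.0 in HFLN mice (10.1 to 21.8) and 16.8 in HFOB mice (10.7 to 22.9). Ccnb1 stood at 6.82, 5.85 and 5.65 FPKM and Ccna2, the cyclin of S and G2 phase, at 21.8, 20.0 and 19.3 FPKM. Cdc25c, a phosphatase that activates CDK1, stood at 3.37, 2.99 and 2.74 FPKM, and Foxm1, a transcription factor of mitotic genes, at 8.64, 8.03 and 8.40 FPKM. All 6 were lower in both diet groups than in control, and for Ccnb1, Ccna2 and Cdc25c HFOB was the lowest.

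Exit from mitosis was represented by Ube2c, a ubiquitin-conjugating enzyme of the anaphase-promoting complex, and Cdc20, its activator. Ube2c (chromosome 2, 164769929 to 164772902) stood at 55.2 FPKM in control mice (34.5 to 75.9), 41.8 in HFLN mice (25.4 to 58.1) and 44.5 in HFOB mice (27.3 to 61.8), the third highest level of the 41 genes in control. Its differences of -0.39 in HFLN and -0.30 in HFOB were the lowest of the 41 genes against control. Cdc20 (chromosome 4, 118432901 to 118437343) stood at 24.0 FPKM in control mice (8.34 to 39.7), 19.4 in HFLN mice (5.82 to 32.9) and 21.7 in HFOB mice (7.32 to 36.1). Its row reaches 6.83 kb past the gene.

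Plk1, the aurora kinases and their partners were lower in HFLN than in control, within the intervals. Plk1, a kinase of spindle assembly, stood at 19.3 FPKM in control mice (10.5 to 28.1), 15.4 in HFLN mice (8.56 to 22.3) and 17.4 in HFOB mice (9.94 to 24.8). Aurka, which acts at centrosomes, stood at 12.5, 10.2 and 12.1 FPKM, and its activator Tpx2 at 13.3, 12.0 and 11.3 FPKM, with HFOB the lowest for Tpx2. In the chromosomal passenger complex, which corrects kinetochore attachment, the kinase Aurkb stood at 12.8, 11.7 and 11.9 FPKM. Its partners Birc5 and Cdca8 stood at 45.9, 39.7 and 45.9 FPKM and at 18.7, 17.1 and 18.5 FPKM. Birc5 thus differed from control by -0.20 in HFLN and 0.00 in HFOB.

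The remaining genes of this class differed from control by -0.13 to 0.05. Mki67, the classical marker of cycling cells, stood at 14.3 FPKM in control mice (9.17 to 19.5), 14.4 in HFLN mice (9.20 to 19.6) and 14.1 in HFOB mice (9.06 to 19.1). A further row of Mki67 raised its sum to 16.5, 17.3 and 16.3 FPKM. Top2a, which untangles DNA, stood at 24.9 FPKM in control mice (16.2 to 33.7), 25.9 in HFLN mice (16.9 to 34.9) and 24.3 in HFOB mice (15.8 to 32.8). The checkpoint kinases Bub1 and Bub1b had 4.68, 4.63 and 4.36 FPKM and 17.3, 17.4 and 17.8 FPKM, and the kinetochore proteins Cenpf and Cenpe 4.43, 4.47 and 4.28 FPKM and 14.0, 12.9 and 13.3 FPKM, the last with a lower bound of 0 in control. The spindle motors Kif11 and Kif20a had 10.3, 9.72 and 9.25 FPKM and 9.68, 9.66 and 9.38 FPKM. In HFLN the genes higher than control were Bub1b, Cenpf, Mki67 and Top2a, by at most 0.05, and in HFOB Bub1b alone was higher, by 0.04.

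At a fold of 1.2 on the same scale, 4 of the 22 genes lay below control in HFLN: Ube2c, Ccnb2, Plk1 and Cdc20. They are 18.2% of the class, and over all rows the share was 10.9%. In HFOB 2 were, Ube2c and Ccnb2, with 9.58% of all rows, a share close to theirs. With a pseudocount of 0.1 FPKM Ccnb1 and Cdc25c joined them, 4 in all. The share of all rows at that pseudocount was not counted, so the rise to 4 has no background. No gene of the 3 classes was higher by that fold against control (8.04% and 6.00% of all rows). Between the diet groups Ccnd1 was the 1 gene past it, lower in HFOB (7.48% of all rows), and no gene was higher by that fold (6.90% of all rows).

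Within G2 and mitosis, the difference of HFLN from control was lower in genes with shorter transcripts, and less regularly so in HFOB. Over its 22 genes, length on a log2 scale and the difference of HFLN from control were correlated with Pearson's r = 0.71 and Spearman's rho = 0.75, a description over genes measured in the same libraries. Protein-coding rows showed a weaker trend of the same sign, with an r of 0.22 over 13606 rows. In HFOB against control the mitotic genes had r = 0.50 and rho = 0.41, and protein-coding rows r = 0.10. In HFOB against HFLN the sign was the opposite, with r = -0.45 for the mitotic genes and -0.15 for protein-coding rows. The 13 S-phase genes had r = 0.24 and rho = 0.24 in HFLN against control. In HFOB against control they had r = 0.67 and rho = 0.49, so a trend of this sign was not confined to the mitotic genes. The values that follow are of HFLN against control. Of transcripts of at most 1500 bases, the median of protein-coding rows was -0.12 and Ube2c, the 1 member of that length, lay at -0.39. Between 1500 and 2500 bases the 8 mitotic genes had a median of -0.23, the 4 S-phase genes -0.03 and protein-coding rows -0.02. Above 5000 bases the 4 mitotic genes, Cenpe, Cenpf, Mki67 and Top2a, had a median of 0.01, beside 0.04. After removal of the trend that protein-coding rows showed with length and GC content, a step added after the values were seen, the class median was -0.15 in HFLN and -0.08 in HFOB.

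**Figure D3:**
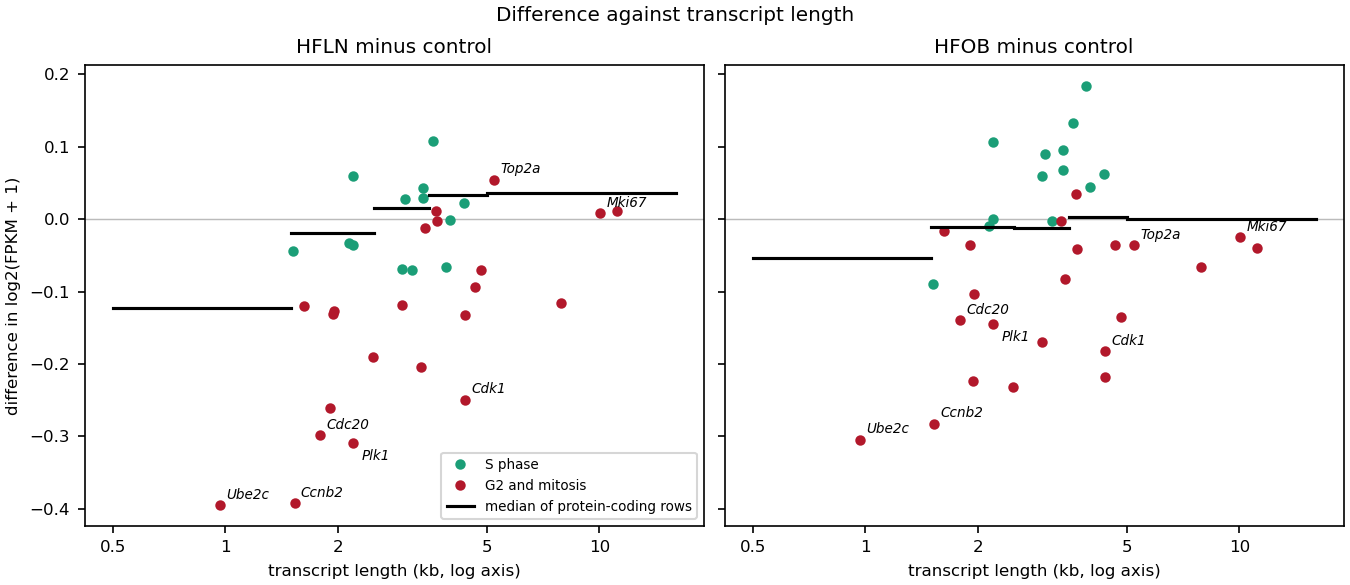
Difference in log2(FPKM + 1) from control against transcript length (log axis) for S-phase genes (green) and genes of G2 and mitosis (red), in HFLN and HFOB; black steps are medians of protein-coding rows in 5 length ranges. Short mitotic transcripts such as Ube2c and Ccnb2 lie lowest, and the long transcripts Mki67 and Top2a lie near 0.

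Promoters of the genes were read from RefSeq to show the letters by which cell-cycle genes are known to be timed. Windows of 250 bases before to 50 after the start were found for 30 of the 41 genes. None was used for Ccnd1, Ccnd2, Ccne2, Mcm4, Gins2, Ccna2, Cdc25c, Foxm1, Aurkb, Kif20a and Tpx2. Searched on both strands were the CCAAT box (CCAAT), which binds NF-Y, the cell cycle genes homology region (TTTGAA or TTCGAA), which binds the MuvB complexes of mitotic genes, and E2F sites (TTTCGCG or TTTCCCG or TTTGGCG). A homology region was found in 13 of 16 genes of G2 and mitosis, 3 of 11 of S phase, 0 of 3 of G1, and 21.7% of all genes with a window. An E2F site was found in 3 of 16, 5 of 11 and 0 of 3, and in 6.38% of all. CCAAT boxes were common to 15 of 16 and 9 of 11, and 1 of 3 in G1, with 41.1% of all. A gene with several starts counted if any of its windows held a match. The match in G1 was in Ccnd3, at a start 88416 bases inside the gene, and the window at the gene's edge held none. Matches of different kinds overlapped once in the members, in Cdca8. A match is a description of letters and does not show that a factor binds.

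The 160 bases before the start are given for 4 genes of mitosis with low values in HFLN whose windows hold both a CCAAT box and a homology region, and for 2 S-phase genes near control. Plk1 and Aurka, which also hold both, are not shown, and their homology regions lie after the start, in the transcribed part of the window. The S-phase genes with a homology region, Mcm2, Mcm7 and Cdc45, are not shown either. They were near control as well, at 0.03, -0.07 and -0.03 in HFLN. The sequences are from GRCm38.p6, 5′ to 3′ on the strand of the gene, with capitals on any of the motifs. In Ube2c, Cdc20 and Cdk1 a homology region and CCAAT boxes stand within the stretch, and Cdk1 also holds an E2F site there. In Ccnb2 the capitals are CCAAT boxes, its homology regions lying outside the stretch shown. Mcm6 has both E2F sites and CCAAT boxes, Rrm1 has CCAAT boxes alone, and neither holds a homology region.
Ube2c, chr2:164769769-164769928, plus strand: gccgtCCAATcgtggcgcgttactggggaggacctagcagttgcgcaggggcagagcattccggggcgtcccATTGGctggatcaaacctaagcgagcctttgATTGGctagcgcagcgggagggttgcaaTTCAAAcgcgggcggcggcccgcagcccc
Ccnb2, chr9:70421555-70421714, minus strand: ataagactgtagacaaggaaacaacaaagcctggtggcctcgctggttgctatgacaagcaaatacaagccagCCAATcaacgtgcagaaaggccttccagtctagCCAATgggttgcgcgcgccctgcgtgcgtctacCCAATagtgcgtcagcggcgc
Cdc20, chr4:118437344-118437503, minus strand: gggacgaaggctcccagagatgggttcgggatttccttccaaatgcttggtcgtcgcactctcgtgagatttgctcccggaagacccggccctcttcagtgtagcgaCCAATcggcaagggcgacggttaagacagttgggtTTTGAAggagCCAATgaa
Cdk1, chr10:69352913-69353072, minus strand: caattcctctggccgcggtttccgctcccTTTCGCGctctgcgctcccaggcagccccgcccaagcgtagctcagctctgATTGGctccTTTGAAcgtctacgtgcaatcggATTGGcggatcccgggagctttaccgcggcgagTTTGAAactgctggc
Mcm6, chr1:128359706-128359865, minus strand: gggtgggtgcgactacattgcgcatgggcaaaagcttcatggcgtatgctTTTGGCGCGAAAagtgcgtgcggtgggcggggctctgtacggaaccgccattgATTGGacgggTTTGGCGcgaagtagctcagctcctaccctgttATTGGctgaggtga
Rrm1, chr7:102441535-102441694, plus strand: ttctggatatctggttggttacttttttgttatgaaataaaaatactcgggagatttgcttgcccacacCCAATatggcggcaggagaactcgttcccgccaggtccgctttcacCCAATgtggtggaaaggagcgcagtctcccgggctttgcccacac

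Among the mitotic genes with a window, those with and without a homology region overlapped in their values. The 13 with one had a median difference of -0.12 in HFLN against control, and the 3 without, Birc5, Ccnb1 and Cenpe, -0.19. Mki67, Top2a and Cenpf, which stayed near control, hold one as well.

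Other genes of the pathway were taken from fixed lists, and of the CDK inhibitors Cdkn1a passed, in HFOB against control. Cdkn1a, the p53-regulated inhibitor p21, stood at 49.9 FPKM in control mice (26.6 to 73.2), 22.3 in HFLN mice (14.3 to 30.3) and 16.3 in HFOB mice (10.0 to 22.6). Both diet groups were below control, and the intervals of HFOB and control did not overlap, so that it passed there. Cdkn1b, the inhibitor p27 that rises as granulosa cells stop dividing, stood at 37.6 FPKM in control mice (23.5 to 51.6), 47.5 in HFLN mice (30.2 to 64.8) and 50.9 in HFOB mice (32.4 to 69.4). Both diet groups were above control, with overlapping intervals. Cdkn2a, a further inhibitor gene, had 3.94, 2.74 and 3.12 FPKM, and Cdkn2b, an inhibitor of CDK4 and CDK6, 42.0, 33.5 and 39.1 FPKM. Of the 10 CDK and inhibitor genes 0 passed in HFLN and 1 in HFOB, and 7 of 10 were lower than control in each, beside 0.283% and 0.366% of all rows passing and 49.9% and 53.0% of all rows lower.

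**Figure D4:**
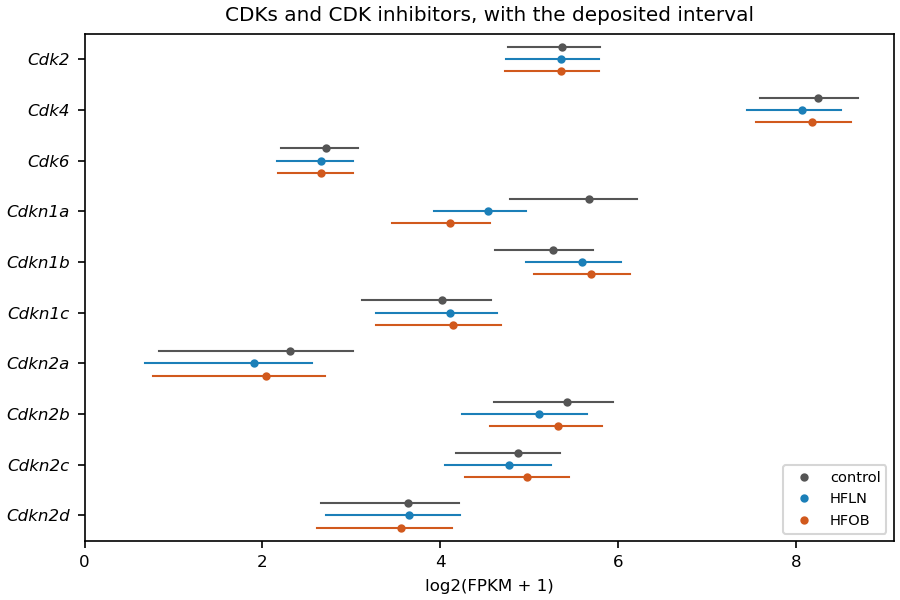
Level of cyclin-dependent kinases and their inhibitors on a log2(FPKM + 1) axis in control (grey), HFLN (blue) and HFOB (orange); points are deposited group values and lines deposited intervals. Cdkn1a is lower and Cdkn1b higher in both diet groups than in control, and the intervals of Cdkn1a in control and HFOB lie apart.

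Replication and mitosis genes outside the 41 were counted in the same way. Of 47 other mitotic genes 35 were lower in HFLN and 30 in HFOB than in control, with medians of -0.07 and -0.06, beside 49.9% and 53.0% of all rows lower, and 0 passed (0.283% and 0.366% of all rows passing). Cenpa, the histone of the centromere, stood at 26.0, 19.8 and 23.1 FPKM, Cdca3, which helps to degrade the inhibitor of CDK1, at 22.6, 18.1 and 19.5 FPKM, and Racgap1, a cytokinesis protein, at 17.9, 14.9 and 15.3 FPKM. Nek2, a centrosomal kinase, stood at 7.62, 9.29 and 6.35 FPKM, highest in HFLN, and Cks1b, a CDK cofactor, at 72.5, 62.8 and 73.4 FPKM. Of 40 other replication genes 16 and 11 were lower, with medians of 0.03 and 0.07, where 49.9% and 53.0% of all rows were lower, and 0 passed. The subunits of chromatin assembly factor 1 differed from control in opposite directions, with overlapping intervals. Chaf1b stood at 9.42, 7.56 and 7.51 FPKM and Chaf1a at 7.64, 9.10 and 8.93 FPKM. Rfc5, of the clamp loader, stood at 9.97, 10.5 and 12.0 FPKM, and the polymerase subunits Pole2 and Pold2 at 3.82, 3.41 and 4.19 FPKM and at 30.7, 27.1 and 32.5 FPKM, the latter with lower bounds of 0.

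The RB, E2F and MuvB genes, which hold cell-cycle promoters off or on, were near control, with medians of 0.02 and -0.05 over 17 genes. Against control 0 of them passed, where 0.283% and 0.366% of all rows did, so this count is not particular to the list. Lin37, a MuvB subunit, stood at 34.2, 28.7 and 31.4 FPKM, and the row of E2f4, which also holds Elmo3, at 36.8, 32.8 and 34.0 FPKM. Mybl2, the MYB protein that joins MuvB in dividing cells, had 2.87, 3.04 and 3.40 FPKM, and the activator E2f2 1.72, 1.81 and 2.02 FPKM. E2f3 and its dimer partner Tfdp1 had 5.32, 5.39 and 4.82 FPKM and 22.8, 24.2 and 21.9 FPKM.

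Markers of ovarian cell types were read beside these genes. Granulosa markers had a median difference from control of -0.18 in HFLN, with 10 of 12 lower, and of -0.12 in HFOB, with 7 of 12 lower, beside 49.9% and 53.0% of all rows lower. In HFOB that count is near the share of all rows. The aromatase gene Cyp19a1 and the inhibin subunit gene Inhbb were the lowest in HFLN, at -0.49 and -0.33, and in HFOB Cyp19a1 was again the lowest, at -0.72, next to the activin subunit gene Inhba at -0.57. Oocyte markers had medians of 0.00 and 0.07, of 12 genes. The 8 oviduct and cilia markers had a median of 0.60 in HFLN, with 8 of 8 higher than control, and of -0.39 in HFOB, with 8 of 8 lower, and of -1.15 in HFOB against HFLN. Their sum, 473, 610.2 and 381 FPKM in control, HFLN and HFOB, was mostly the oviduct secretory gene Ovgp1, at 369, 432 and 307 FPKM. Theca markers had medians of -0.23 and -0.23, endothelial markers -0.06 and -0.09, leukocyte markers -0.03 and 0.02. Luteal markers had medians of 0.05 and -0.31, surface epithelium markers 0.19 and -0.14, and the 4 measured erythrocyte markers -0.71 and -0.25. In HFLN the luteal markers ranged from -1.30, for a joint row of Akr1c18 and Akr1c12, to 0.64 for Star. The intervals of both overlapped those of control. The part of these cell types in the lower mitotic values was not tested.

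**Figure D5:**
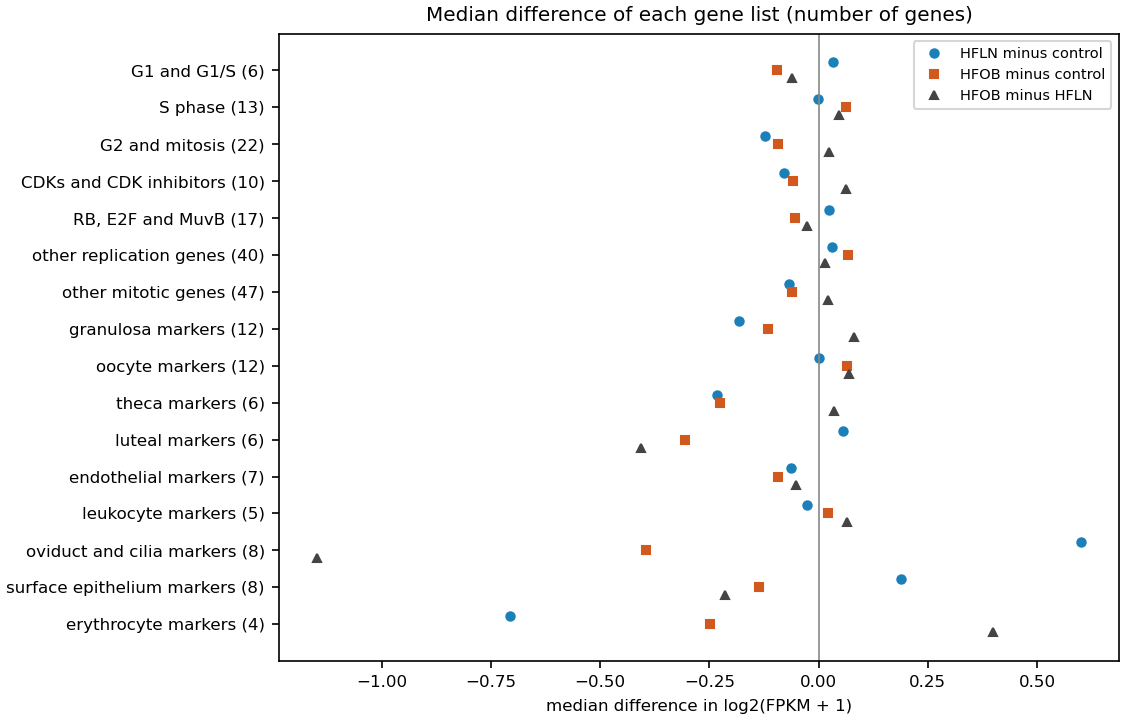
Median difference in log2(FPKM + 1) of each gene list in the 3 comparisons, with the number of genes measured in brackets; circles are HFLN minus control, squares HFOB minus control and triangles HFOB minus HFLN. The mitotic list lies at -0.12 and -0.09 against control, nearer to 0 than the oviduct and cilia list.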

How the data were processed

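Ovarian RNA of 9 mice in 3 groups was measured by RNA sequencing. The submitters' processing notes list build mm10, Cuffdiff 2.2.1.3 and Cufflinks 2.2.1.0, with TopHat2 2.1.0 and Trimmomatic 0.32.3. Per the file headers the authors deposited 1 FPKM per group with a lower and an upper bound. Not given in the sources used here are the annotation, the strand setting of the counting, the scaling between libraries and the level of the bounds, so overlapping genes may share fragments.

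RefSeq identifiers (99.2% of 36886 matched) took symbols from GRCm38.p6, the assembly behind mm10. Differences used log2(FPKM + 1), which understates those of low genes. Rows of at least 1 FPKM in any group with a status of OK were considered. Transcript length and GC content came from GENCODE M21. Python 3.11.15, pandas 2.3.3 and scipy 1.17.1 were used. Every member is described, and from each other list the 2 genes with the widest difference per comparison were eligible to be named; marker genes were named only where their list is described. The members and lists were chosen with earlier results of these data known. Alternatives covered pseudocount, row choice, filter, scaling, mean, fold and 2 settings chosen after seeing the data.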

Additional observations from a re-analysis of the deposited data

How the results depend on the processing

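The median of G2 and mitosis stayed below 0 under all 9 alternatives, at -0.15 to -0.08 in HFLN and -0.13 to -0.05 in HFOB against control, and that of S phase lay at -0.03 to 0.04 and 0.06 to 0.11. Dropping the filter on low values could not change them, as all 41 genes pass it. Summing the rows of a symbol also left these medians unchanged. Without the 14 rows that merge genes or reach more than 5 kb past the gene, a setting chosen after seeing the data, the median of the G1 genes moved to -0.0057 in HFOB against control and -0.0055 in HFOB against HFLN; 2 genes, Ccne1 and E2f1, then remain. With a pseudocount of 0.1 FPKM, which weighs low genes more, 4 mitotic genes were 1.2-fold lower in HFOB than in control (Ube2c, Ccnb2, Ccnb1 and Cdc25c). With the same pseudocount 1 gene, Ccnd1, was 1.2-fold higher in HFLN than in control and 1, Gins2, higher in HFOB than in HFLN. These counts are the same over all 41 genes. The shares of all rows at this pseudocount were not counted, so the counts have no background beside them. The number of genes passing the call rule was 0 in the 3 comparisons under its 4 alternatives. As the rule asks for intervals apart and those of all 41 genes overlap, this count was settled beforehand and adds no support. The median of protein-coding rows was moved by at most 0.04 by upper-quartile scaling. No paired analysis was possible because the table holds 1 value per group, and for the same reason no animal could be left out.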
